A study of Arabidopsis thaliana with 16 samples.

Results

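The genes described are 10 cysteine-rich receptor-like kinase (CRK) genes of Arabidopsis thaliana: CRK3 (AT1G70530), CRK5 (AT4G23130), CRK6 (AT4G23140), CRK7 (AT4G23150), CRK8 (AT4G23160), CRK10 (AT4G23180), CRK11 (AT4G23190), CRK13 (AT4G23210), CRK14 (AT4G23220) and CRK28 (AT4G21400). Peaks of WRKY18, WRKY33 and WRKY40 were taken as theirs where the authors' lists named one of these loci as the nearest gene start. This gave 49 of the 16600 peaks in the 12 lists. The peaks lay at 7 of the 10 genes, where 14.6% of protein-coding genes had a peak in some list. CRK6, CRK7 and CRK8 had none. All 10 loci carry these CRK names in the RefSeq gene table.

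CRK proteins are receptor kinases of the plasma membrane, with a cysteine-rich part outside the cell and a kinase inside. The family is large in Arabidopsis, stands partly in tandem arrays, and many of its genes are induced by pathogens, salicylic acid or oxidative stress. WRKY proteins are plant transcription factors that recognise the W-box, a short motif common in the promoters of defence genes, and some CRK promoters have long been discussed as WRKY targets.

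ChIP-seq with an anti-HA antibody was done on whole seedlings 12 days old that were labelled Col-0 WRKY18-HA, Col-0 WRKY33-HA or Col-0 WRKY40-HA, all described as complementation lines. Untagged Col-0 WT seedlings were the negative controls. Each genotype was sampled untreated (0 h) and after 2 h in medium with 1 µM flg22, a peptide of bacterial flagellin, with 2 biological replicates. Not given in the sources used here were the promoter that drives each HA transgene and the number of independent lines per factor.

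The lists held 1653 to 3272 peaks at 2 h. At 0 h the WRKY18 lists held 260 and 1843 peaks, and the WRKY33 and WRKY40 lists 9 to 44. Replicate 2 lists were the longer ones at 2 h in all 3 lines. The median peak at 2 h had 282 and 222 tags in the WRKY33 lists (replicates 1 and 2) and 570 to 678 in those of the other lines. The labels' protocols put the reads per library at 7 to 20 M, without a figure for each. Peaks are numbered in each list, and 11 of the 12 lists lacked some numbers, up to 276 in WRKY33 replicate 2 at 2 h. A gene missing from a list may have stayed below the authors' threshold or had its peak removed after calling, and neither is a measurement of 0 binding. The 2 h samples all had flg22, so its effect and that of time in the medium cannot be told apart.

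After flg22, each factor had a peak in both replicates at 6 of the 10 genes. CRK3, CRK10, CRK11, CRK14 and CRK28 were listed for all 3 factors. CRK5 was listed in both replicates for WRKY18 and WRKY40, and CRK13 in both replicates for WRKY33. Of the 27432 protein-coding genes on the nuclear chromosomes, 4.67% met the same rule for WRKY18, 4.09% for WRKY33 and 5.23% for WRKY40. For all 3 factors together the count was 5 of 10 genes, beside 2.06% of protein-coding genes. List by list, WRKY18 had 6 and 6 of the 10 genes (5.49% and 8.79% of protein-coding genes in replicates 1 and 2), WRKY33 6 and 7 (5.23% and 8.06%), and WRKY40 6 and 6 (6.06% and 9.53%). These genes were chosen with their peaks known, so the counts are descriptions and no p-value is given for them.

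In untreated seedlings only WRKY18 had peaks at these genes. CRK3, CRK10 and CRK11 were listed in both 0 h replicates of WRKY18, where 0.729% of protein-coding genes were. CRK5 was listed in 0 h replicate 2 alone, so the WRKY18 lists held 3 and 4 of the 10 genes, beside 0.857% and 5.71% of protein-coding genes. No peak of WRKY33 or WRKY40 at 0 h was assigned to any of the 10 genes. Their 0 h lists were short: WRKY33 held 0.0219% and 0.149% of protein-coding genes, 0.0109% in both replicates, and WRKY40 0.0109% and 0.0583%, with 0% in both.

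**Figure D1:**
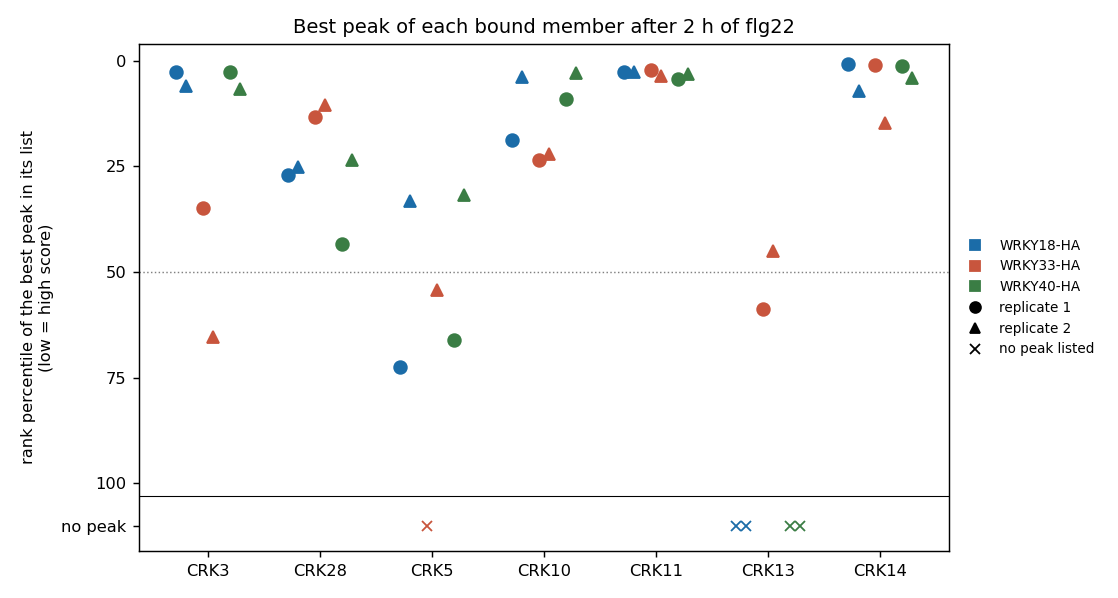
Rank percentile of the best peak of each bound gene at 2 h (y axis, 0 at the top for the highest score in the list), by line (colour) and replicate (shape). Crosses mark lists without a peak of that gene. CRK11 stays between 2.24% and 4.39% in all 6 lists, and CRK13 has points for WRKY33 only. CRK3 is far lower in the WRKY33 lists, where its peaks are narrower.

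Scores of the authors' peak caller have different ranges in different lists, so strength is given as a rank percentile as well: the rank of a peak by score, divided by the number of peaks in its list, with low values for strong peaks. The score of the HA library, the tags (reads counted within the peak) in the HA library and in WT, and the tag enrichment over WT are the authors' values. That enrichment is not the plain quotient of the printed tags, and its formula is not given in the sources used here. At CRK11, 3035 tags against 13 in WT stand beside 28.3-fold (WRKY18, 2 h, replicate 1).

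CRK11 had the narrowest range of ranks of the 5 genes listed for all 3 factors. It encodes a receptor kinase that was among the first of the family described as induced by pathogens and salicylic acid. Its site covered chromosome 4 from 12143553 to 12144377 (build TAIR10) over the start of the gene, with peak midpoints 60 to 132 bp upstream of it.

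In the 2 h lists, CRK11 scored 63.4 and 59.1 with WRKY18 (replicates 1 and 2), 36.4 and 35.4 with WRKY33, and 50.2 and 63.2 with WRKY40. The rank percentiles were 2.67 and 2.61 for WRKY18, 2.24 and 3.69 for WRKY33, and 4.39 and 3.19 for WRKY40, so the 3 lines overlapped. The tags numbered 3035 and 2690 with WRKY18 against 13 and 14 in WT, 906 and 574 with WRKY33 against 8 and 13, and 2474 and 2589 with WRKY40 against 8 and 14. All listed peaks were called against these WT samples, so HA tags above those of WT are no separate result. The enrichment in tags over WT was 28.3-fold and 30.7-fold for WRKY18, 21.3-fold and 17.3-fold for WRKY33, and 31.3-fold and 36.1-fold for WRKY40. Ranked by this enrichment, CRK11 stood between 0.336% and 1.36% in the 6 lists.

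In untreated seedlings CRK11 scored 28.3 and 50.3 with WRKY18, at rank percentiles of 6.92 and 2.41. The tags numbered 653 and 1572, against 18 and 10 in WT. It was the highest-ranked of the 10 genes in both 0 h lists of WRKY18.

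CRK14, at the far end of the array from CRK5, had the highest single score of the group and no peak at 0 h. Its site lay on chromosome 4 from 12156581 to 12157741. Scores at 2 h were 88.5 and 40.6 with WRKY18, 42.8 and 23.8 with WRKY33, and 73.7 and 59.1 with WRKY40. The replicates of a line differed more than at CRK11, and replicate 1 was the higher one in each line.

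The rank percentiles of CRK14 were 0.750 and 7.25 for WRKY18, 1.09 and 14.6 for WRKY33, and 1.24 and 4.16 for WRKY40. WRKY33 thus held both a value among the strongest and the weakest value, and the lines overlapped. The tags numbered 3506 and 2226 with WRKY18 against 43 and 26 in WT, 673 and 380 with WRKY33 against 20 and 9, and 2804 and 2412 with WRKY40 against 39 and 26. In WRKY33 replicate 2 a second, weak peak of 251 bp stood beside the main one, with a score of 11.4 and 95 tags against 15 in WT. It lay within the wider peaks of WRKY18.

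CRK10 stands next to CRK11 in the array, and a gain-of-function allele of it is known to cause dwarfing and constitutive defence responses. Its site covered chromosome 4 from 12137134 to 12138369. Scores at 2 h were 28.2 and 50.9 with WRKY18, 18.5 and 20.4 with WRKY33, and 37.6 and 65.2 with WRKY40. Here WRKY33 had the lowest scores, and replicate 2 was the higher in each line.

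The rank percentiles of CRK10 were 18.7 and 3.91 for WRKY18, 23.4 and 22.0 for WRKY33, and 8.97 and 2.78 for WRKY40. Both WRKY33 values lay beyond the 4 others. The tags numbered 2265 and 3798 with WRKY18 against 40 and 40 in WT, 447 and 325 with WRKY33 against 33 and 15, and 2478 and 4080 with WRKY40 against 39 and 42. The enrichment in tags was 7.51-fold and 9-fold for WRKY33, where the other lines had 17.7-fold to 27.4-fold.

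At 0 h, CRK10 scored 13.1 and 39.4 with WRKY18, at rank percentiles of 62.9 and 5.26. The replicates were far apart, in lists of 260 and 1843 peaks. The tags numbered 442 and 1661 against 23 and 8 in WT.

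**Figure D2:**
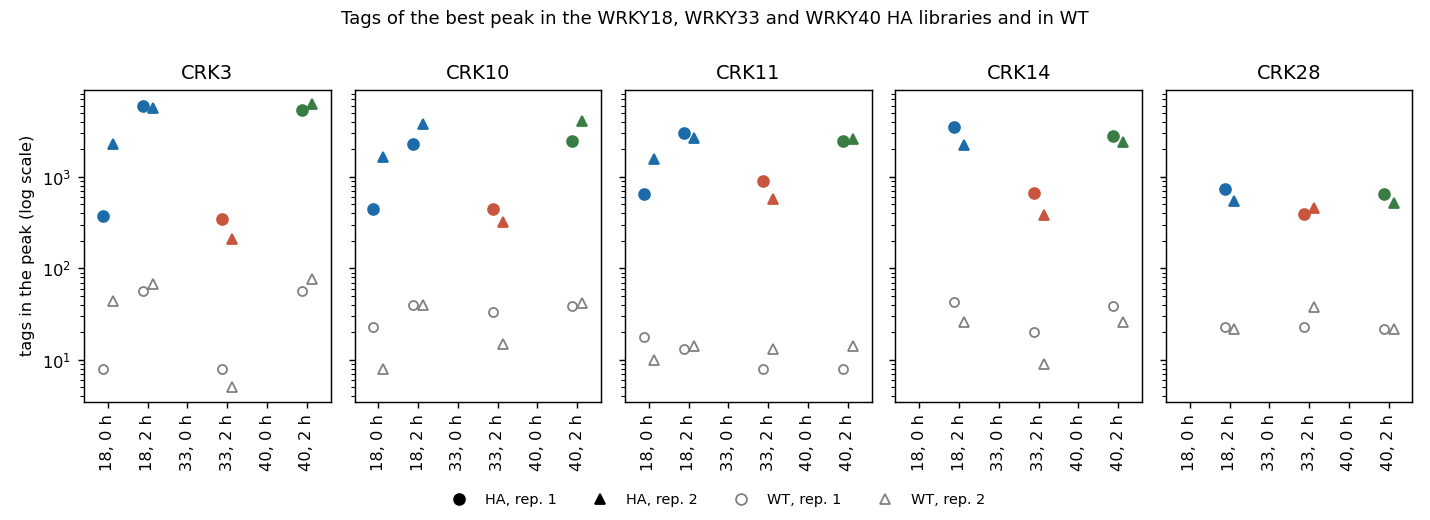
Tags in the best peak of 5 genes (y axis, log scale) in the HA libraries (filled, coloured by line) and in WT at the same peak (open, grey), by line and time. Filled points are above open ones throughout, in peaks that were called against WT. Values at 0 h exist only for WRKY18 at CRK3, CRK10 and CRK11.

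CRK3 lies on chromosome 1, outside the array, next to CRK2. It had the broadest peaks of the group with WRKY18 and WRKY40. In the 2 h lists these were 2523 and 2202 bp wide for WRKY18 and 2479 and 2509 bp wide for WRKY40, while those of WRKY33 were 585 and 413 bp wide. The median width of all peaks at 2 h was 536 bp. The whole site covered chromosome 1 from 26590974 to 26593513.

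Scores of CRK3 at 2 h were 64.7 and 43.0 with WRKY18, 16.3 and 12.4 with WRKY33, and 57.7 and 50.3 with WRKY40. The rank percentiles were 2.55 and 6.03 for WRKY18, 34.9 and 65.3 for WRKY33, and 2.60 and 6.57 for WRKY40. WRKY33 stood far below the other lines in both replicates, but its peaks covered only a part of the stretch under the broader ones. The tags numbered 5983 and 5675 with WRKY18 against 57 and 68 in WT, 347 and 209 with WRKY33 against 8 and 5, and 5319 and 6205 with WRKY40 against 57 and 76. Tags grow with the width of a peak. The enrichment over WT was 8.14-fold and 8.30-fold for WRKY33, where the other lines had 16.8-fold to 20.3-fold. These values too belong to peaks of unlike width, and how the width enters them is not given in the sources used here.

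The broad CRK3 peaks covered a pair of places that other lists held apart. In WRKY33 replicate 1 at 2 h, a second peak lay further upstream, from 26592326 to 26593253, with a score of 15.1 and 549 tags against 19 in WT. The WRKY18 list of 0 h replicate 1 held such a second peak from 26592316 to 26593136, with a score of 13.3 and 411 tags against 29. The authors assigned both of these to AT1G70540 (EDA24), a gene for an invertase inhibitor domain protein, so they are not counted for CRK3. WRKY18 scored 20.2 and 30.2 at CRK3 at 0 h, with peaks of 495 and 1914 bp and 377 and 2271 tags, against 8 and 44 in WT. The wider 0 h peak was in the longer list.

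At CRK28 WRKY33 had the best rank percentiles, while the authors' tag enrichment of the lines overlapped. The protein is known to associate with the flagellin receptor complex and to induce cell death when overproduced. Its site covered chromosome 4 from 11401667 to 11402272, 0.715 Mb from the array. Scores at 2 h were 23.5 and 23.5 with WRKY18, 22.4 and 26.3 with WRKY33, and 17.4 and 27.4 with WRKY40. The scores overlapped, although the highest scores of the WRKY33 lists were only 72.3 and 97.1, where those of the other lines were 193 to 262.

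The rank percentiles of CRK28 were 27.0 and 25.03 for WRKY18, 13.4 and 10.5 for WRKY33, and 43.4 and 23.5 for WRKY40. Both WRKY33 values were the best of the 6. The tags numbered 743 and 546 with WRKY18 against 23 and 22 in WT, 390 and 461 with WRKY33 against 23 and 38, and 643 and 514 with WRKY40 against 22 and 22. By number of tags WRKY33 was the lowest line, with WT counts no lower than those of the other lines. The WRKY33 lists also had the lowest median tags over all their peaks. The enrichment in tags over WT was 9.92-fold and 9.50-fold for WRKY18, 9.41-fold and 10.8-fold for WRKY33, and 9.22-fold and 10.4-fold for WRKY40. WRKY40 replicate 2 held a second, weaker peak of 225 bp, scored at 12.0, where the other lists had 1 peak.

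CRK5, whose overproduction is known to raise resistance to Pseudomonas bacteria and to trigger cell death, had a pair of sites. The first lay at the end of the gene, on chromosome 4 from 12117068 to 12117680, with midpoints 2737 to 2788 bp downstream of the start. It scored 12.5 and 20.1 with WRKY18 at 2 h and 13.4 and 22.8 with WRKY40. The tags were 425 and 706 for WRKY18 against 8 and 24 in WT, and 400 and 635 for WRKY40 against 12 and 19. WRKY18 stood at rank percentiles of 72.5 and 33.2 and WRKY40 at 66.1 and 31.8, better in replicate 2 of both lines. WRKY33 had no peak there in any list.

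The end of CRK5 was also listed at 0 h in WRKY18 replicate 2, with a score of 26.0, a rank percentile of 15.2, and 597 tags against 10 in WT. That list was the only 0 h list with a peak there.

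The second CRK5 site lay upstream of the gene, from 12120221 to 12120848. It scored 12.1 and 11.6 with WRKY18, 13.8 with WRKY33 in replicate 2 and 13.1 with WRKY40 in replicate 2, at rank percentiles of 54.1 to 81.4. These were among the weaker peaks of their lists. For 3 of these 4 peaks the authors' annotation column named the promoter of CRK6, on the other side of the gap between the genes, while the nearest start was that of CRK5. By that column CRK6 would have 3 peaks, and CRK7 and CRK8 none. CRK6 and CRK7 are known to act in the response to oxidants outside the cell.

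CRK13 was listed only with WRKY33. Its overproduction is known to cause salicylic acid accumulation and resistance to Pseudomonas. The peaks covered chromosome 4 from 12151835 to 12152332, with midpoints 649 and 598 bp upstream of the start. They scored 13.2 and 15.1, at rank percentiles of 58.6 and 45.1, with 219 and 233 tags against 13 and 16 in WT. No list of WRKY18 or WRKY40 held a peak there. Of all protein-coding genes, 0.667% had peaks in both WRKY33 lists and none in the 2 h lists of the other lines. The levels of WRKY18 and WRKY40 at this place are not in the lists, so the difference between lines could not be tested.

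Between CRK13 and CRK14 lay a further site that the authors assigned to the transcribed pseudogene AT4G23215, on chromosome 4 from 12153244 to 12154069. It was strong with WRKY33, with scores of 41.2 and 36.7 and rank percentiles of 1.39 and 3.28. WRKY40 scored 15.4 and 13.1 there, at 53.8 and 73.8, and WRKY18 scored 12.5 in replicate 1 alone, at 72.5. It held the only WRKY33 peak of the array at 0 h, in replicate 1, with a score of 10.2 and 184 tags against 6 in WT. That peak had the lowest score of the 9 in its list.

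Read as 1 region, the array from the CRK5 site at the gene's end to the CRK14 promoter spanned 40674 bp, from 12117068 to 12157741. It held 9 merged sites, of which 6 had peaks of the genes described here. The other 3 were a pair of sites at CRK9 (AT4G23170, listed as EP1) and the one at AT4G23215. All 10 protein-coding genes of the stretch are CRK genes, in the order of the RefSeq gene table, and 8 of them are among the 10 described here.

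At 2 h the stretch held 8 and 7 peaks of WRKY18, 6 and 9 of WRKY33, and 7 and 8 of WRKY40. The numbers overlapped between the lines. These peaks held 0.788% and 0.452% of all tags in the peaks of their list for WRKY18, 0.655% and 0.424% for WRKY33, and 0.719% and 0.515% for WRKY40. They covered 6533 and 4979 bp for WRKY18, 3565 and 4404 bp for WRKY33, and 5930 and 6010 bp for WRKY40. WRKY33 covered the least in each replicate. Over all peaks of the 2 h lists its median widths were also the lowest, 517 and 476.5 bp, beside 537 to 584 bp. At 0 h WRKY18 had 3 and 5 peaks in the stretch, WRKY33 1 and 0, and WRKY40 0 and 0.

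**Figure D3:**
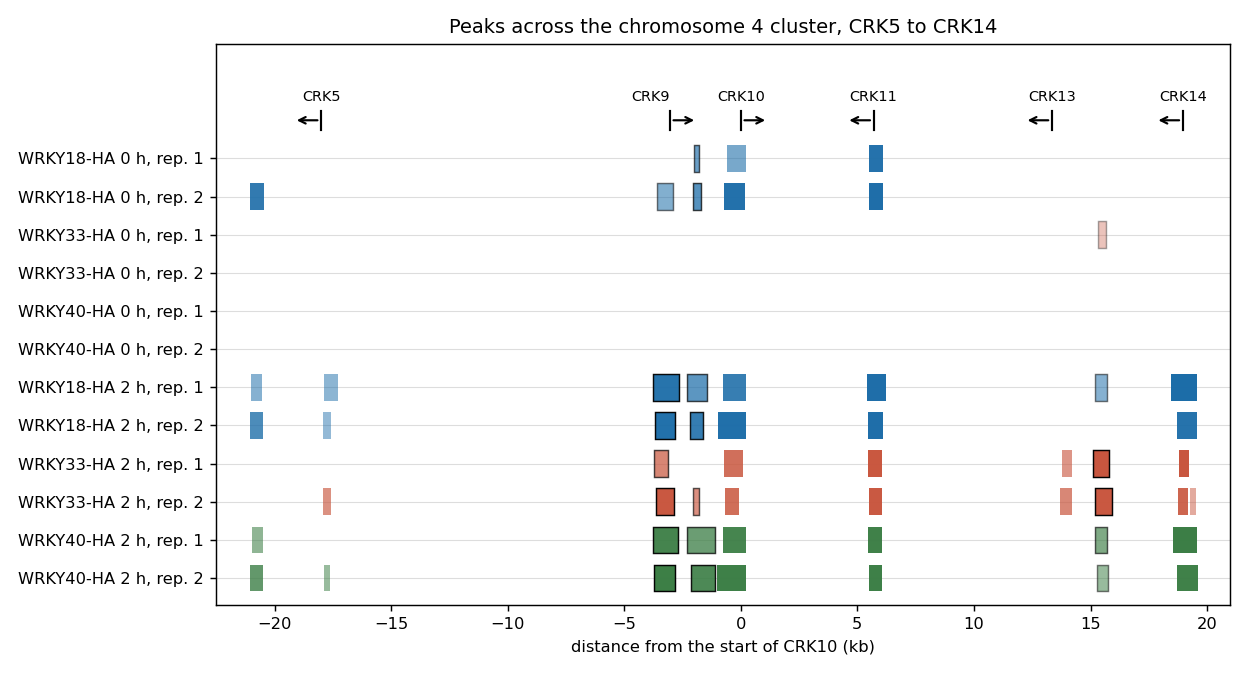
Peaks in the array (bars, to scale) in each of the 12 lists, against the distance from the start of CRK10 in kb. Darker bars rank higher in their list, black outlines mark peaks assigned to other genes, and arrows give gene starts and directions implied by the authors' distances. The 2 h lists share sites at CRK9, CRK10, CRK11 and CRK14, and CRK6, CRK7 and CRK8 lie in the empty stretch between CRK5 and CRK9.

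The sites were not spread evenly. The longest gap, 13509 bp, lay between the upstream site of CRK5 and the promoter site of CRK9, and it takes in CRK6, CRK7 and CRK8. The CRK9 sites and the CRK10 site stood close together, with gaps of 328 and 96 bp. The CRK9 promoter scored 42.2 and 47.8 with WRKY18, 15.0 and 37.9 with WRKY33, and 39.1 and 72.4 with WRKY40. Its WRKY33 replicates stood at rank percentiles of 43.98 and 2.90, a wider spread than in the other lines. Tandem CRK genes resemble each other in sequence, and how the authors handled reads that match several of them is unknown here, so peaks and gaps in the array carry that uncertainty.

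Most peaks lay just upstream of a start. Of the 42 peaks at 2 h, 38 (90.5%) had their midpoint within 1000 bp upstream, and the other 4 lay at the end of CRK5. Of all 14393 peaks at 2 h, 51.8% lay within that distance upstream. The median rank percentile of the 42 peaks was 16.7, beside 49.95 for all peaks, and their median enrichment in tags was 10.6-fold, beside 7.80-fold. Both sets were given as descriptions, since the genes were chosen from these lists.

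The position of the maximum within a peak was not used to choose the genes. At CRK10 it differed between times. The 6 maxima at 2 h lay 392 to 493 bp upstream of the start, while those of WRKY18 at 0 h lay 164 bp upstream and 19 bp downstream. At CRK28 the 6 maxima fell within 355 to 395 bp upstream. At CRK14 5 of the 6 lay 173 to 188 bp upstream, and that of WRKY33 replicate 2 lay at 68 bp.

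At CRK11 the maxima split by replicate for WRKY18 and WRKY40. In replicate 1 they lay 68 and 84 bp downstream of the start at 2 h, and in replicate 2 they lay 106 and 98 bp upstream. WRKY18 at 0 h showed the same split, with 29 bp downstream and 111 bp upstream. The WRKY33 maxima lay 102 and 113 bp upstream. At CRK3 the maximum of WRKY18 stood 243 bp upstream in replicate 1 and 1236 bp upstream in replicate 2, at the second of the places described above. The lists of a replicate and time share a WT control, so the replicate and its control cannot be told apart.

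**Figure D4:**
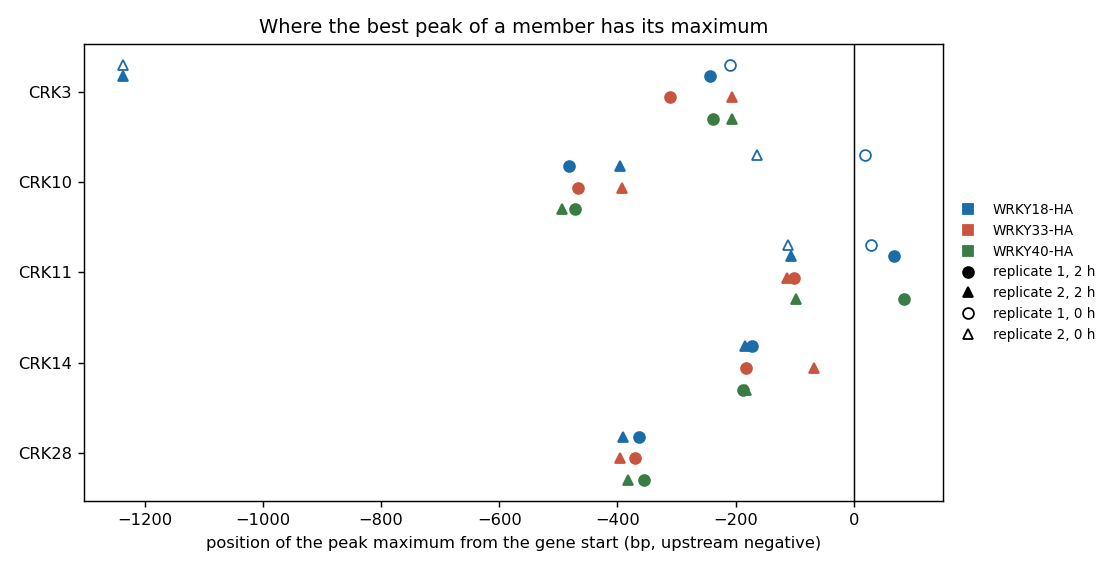
Position of the maximum of the best peak from the gene start in bp (x axis, upstream negative) for 5 genes, by line (colour), replicate (shape) and time (filled 2 h, open 0 h). CRK28 and CRK14 points bunch together, the open CRK10 points lie nearer the start than the filled ones, and CRK3 has a pair of WRKY18 points at 1236 bp upstream.

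WRKY18 and WRKY40 belong to the same subgroup of WRKY proteins, and WRKY33 to another, so the WRKY33 lists were set against the 4 others at 2 h. Of the 5 genes listed in all 6 lists, WRKY33 ranked lower in both replicates at CRK3 and CRK10, ranked higher in both at CRK28, and overlapped with the others at CRK11 and CRK14. Over the 564 protein-coding genes listed in all 6 lists, 26.8% had WRKY33 lower without overlap and 20.9% had it higher, so such separations were common. Ranked by the enrichment in tags in place of the score, CRK3, CRK10 and CRK28 were apart in the same directions. The size of the difference, the other lines minus WRKY33, moved from −45.7 to −27.7 percentage points at CRK3 and from −14.1 to −31.4 at CRK10, and stayed at 17.8 and 17.6 at CRK28. At CRK3 unlike stretches were compared, since the broad peaks of WRKY18 and WRKY40 also took in the place further upstream. The part that this plays in the difference was not tested.

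The mean rank percentile of the 5 genes was 10.3 and 8.96 for WRKY18, 12.1 and 8.03 for WRKY40, and 15.0 and 23.2 for WRKY33. The other lines minus WRKY33 differed by −9.25 percentage points. This is a description without a p-value, since the genes were chosen from these lists. Without replicate 1 the difference was −14.7, and without replicate 2 it was −3.77. Ranked by tag enrichment in place of the score it was −8.14. In the full lists without CRK3 it was −0.142. There, differences of −14.1 at CRK10 and −4.50 at CRK14 stood against 17.8 at CRK28 and 0.249 at CRK11. With the 2 h lists limited to their best 1653 peaks and ranked anew, CRK3 was lost from WRKY33 replicate 2, and the difference over the remaining 4 genes was 1.10.

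The rest of the family was read from a list of 36 other CRK loci. Of these, 10 had a peak in both replicates of WRKY18 at 2 h, 9 of WRKY33 and 9 of WRKY40, and 6 of all 3 factors. The shares of protein-coding genes were 4.67%, 4.09%, 5.23% and 2.06%, in that order. Any factor reached 12 of the 36 (33.3%) and 7 of the 10 genes above (70.0%), where 7.43% of protein-coding genes met that rule. Over the whole family, 22 of 46 loci had a peak in some list, beside 14.6% of protein-coding genes. In the longer run of 20 CRK genes from CRK5 to CRK24, each factor had peaks in both replicates at 8 genes. The shares of protein-coding genes for each factor are those above, 4.09% to 5.23%. Beyond CRK14 the genes were CRK17 and CRK18 for all 3 factors, CRK20 for WRKY18 and WRKY40, and CRK24 for WRKY33. For the CRK24 peaks the authors' annotation column named the promoter of AT4G23330 instead. For those of CRK20 it named the promoter of AT4G23271, except where the peak lay in an intron of CRK20.

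CRK2, the neighbour of CRK3, is known to act on the oxidase of the flg22 burst. It had a peak of its own, scored 35.0 and 33.7 with WRKY18 and 14.1 and 19.3 with WRKY33. WRKY40 scored 43.9 there in replicate 2, and the replicate 1 list held no such peak. WRKY33 stood at rank percentiles of 49.9 and 25.7, WRKY18 at 11.8 and 11.6, and WRKY40 in replicate 2 at 9.46.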

How the data were processed

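The data are 12 peak lists, 1 for each HA library, that the authors called against the WT sample of the same time and replicate; the 4 WT samples have no list. FastQC 0.11.2, cutadapt 1.2.1, Bowtie 0.12.7, HOMER and build TAIR10 are named in the submitters' processing notes. Not given in the sources used here were the caller, its threshold and the treatment of reads that match several places. The deposited peak score has no stated scale, and its lowest value was 10. Tags per peak are deposited as counts for the HA library and WT, and the authors' tag enrichment over WT is a fold, per the file headers. It differs from the plain quotient of those counts, and its formula is not given in the sources used here. A −log10 q-value per peak is deposited too and was not used. Distances to gene starts are the authors' and were read from the peak's midpoint. For each gene model with more than 1 peak among the 46 CRK loci read here, they led back to 1 start within 0.5 bp. Genes named in the report from outside those loci were not checked in this way.

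All peaks were kept. Peaks sharing 1 bp or more were merged into sites, and tied scores shared their mean rank. A gene was called in a line when both replicate lists held a peak assigned to it. The gene table is RefSeq TAIR10.1, from which names and gene order were used, with 27432 protein-coding loci as background. It held all 46 family loci and the CRK number of 42. No genome was used, so no sequence is printed and the planned motif search was not done. The exact permutation tests planned between lines were run, but their p-values are not given, because the genes were chosen from these lists. Merging and tests were checked on simulated data. All 10 genes are named, with each site found in both replicates of a line; other CRK genes are named where a peak was assigned to them or they lie in the array. The genes, lists and tests were chosen with earlier results of these data known. Alternatives were the assignment of peaks, score and length limits on lists, the overlap, the replicates and the measure of strength. Python 3.11.15, numpy 2.4.6, pandas 2.3.3 and matplotlib 3.10.9 were used.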

Additional observations from a re-analysis of the deposited data

How the results depend on the processing

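Counts of genes and sites stayed within 1.5 times the reported ones under every alternative run, which covered the distance limit of 1000 bp, the better-scoring 50% of each list, equal list lengths, an overlap of 50% of the shorter peak, and each replicate alone. With both replicates required, the genes numbered 5 to 7 for WRKY18, 4 to 6 for WRKY33 and 5 to 6 for WRKY40; single replicates held 6 or 7. With the annotation column in place of the nearest start, an alternative chosen after seeing the data, WRKY18 had 7 genes, CRK6 among them. The mean rank difference at 2 h turned to 1.10 with equal list lengths, also chosen after seeing the data, which both removed CRK3 and ranked the peaks anew; dropping CRK3 from the full lists, added likewise, gave −0.142. The difference at CRK11 turned to −0.307 by tag enrichment and to −0.790 without replicate 1 (1.29 without replicate 2), and that at CRK14 to 1.09 by tag enrichment; both genes overlapped between lines from the start. A replicate block leaves the rank difference at −9.25 and that in the number of genes at −0.5 by construction, and no p is given for either. W-box shares could not be had without a genome. Depth is known only per peak, and weak peaks near the score limit of 10, such as those upstream of CRK5, may be missing from shorter lists.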

Other observations

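Beyond the stretch from CRK5 to CRK14, other family loci had strong or selective sites as well. AT1G70740, a kinase gene on chromosome 1, had the strongest of them, with WRKY18 scores of 21.8 and 100 at 2 h and of 11.0 and 76.2 at 0 h, so replicate 2 was far the higher at both times. WRKY40 scored 21.3 and 94.5 there at 2 h, again with replicate 2 the higher. With WRKY33 at 2 h the gene was called from peaks at different places, so the replicates shared no site. That of replicate 1 lay from 26678051 to 26678677 (score 11.0), and that of replicate 2 from 26675839 to 26676419 (score 14.9). At the place of the former, WRKY18 also scored 24.1 and 19.3 at 2 h, and WRKY40 25.7 and 24.8. There replicate 1 was the higher in both lines. CRK41 (AT4G00970) scored 37.8 and 27.7 with WRKY33, 29.7 and 18.9 with WRKY18, and 24.6 and 26.3 with WRKY40. It also had a WRKY33 peak at 0 h in replicate 1, with a score of 14.2 and 188 tags, in a list of 9 peaks. AT4G11521, which the authors' lists describe as a putative CRK and which is not among the 46 loci, was listed for all 3 factors at 2 h, with scores of 15.3 to 28.4. CRK24 (AT4G23320), at the end of the longer run of CRK genes, was listed with WRKY33 alone, like CRK13, with scores of 22.4 and 11.2. Unlike those of CRK13, both of its peaks were given to the promoter of another gene, AT4G23330, in the annotation column.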
